A study of Harpegnathos saltator with 35 samples.

Results

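Neurons of the ant Harpegnathos saltator were cultured in juvenile hormone III (JH3) and then given the steroid hormone 20-hydroxyecdysone (20E) for 24 h. These cultures made up 4 of the 35 libraries of the series and were compared with the 4 libraries of the JH3 baseline. All genes with at least 1 FPKM (fragments by gene length and sequencing depth, scaled between libraries by the authors) in 3 or more libraries entered the test, 9873 of 14001 in the table. The cultures were made from cells of the central brain, plated with 2 µM of 1 of the 2 hormones for 5 days. All groups shared a medium with insulin, transferrin, selenium and the steroid progesterone, and with honeybee pupal extract until the day before the switch. The 24 h group then had its JH3 medium exchanged for medium with 2 µM 20E for 24 h, and the JH3 baseline had its JH3 medium exchanged for medium with the solvent DMSO for 30 min. The 24 h cultures therefore also spent a further day in culture, and were without JH3 medium for 24 h, against 30 min at the baseline. That time, the loss of JH3 and the addition of 20E cannot be told apart in this comparison alone. The other groups set beside them were JH3 cultures given 20E for 30 min (5 libraries) and 6 h (6 libraries), 20E cultures given JH3 for 24 h (3 libraries), and the 20E baseline (5 libraries; 5 days in 20E, then DMSO for 30 min). The sources give no caste for the donor ants, and do not say whether replicates came from separate dissections, so p-values measure the spread between these libraries.

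Both hormones act through transcription factors. 20E binds a heterodimer of the nuclear receptors EcR and Ultraspiracle (Usp), which in Drosophila switches on a set of early genes (E74, E75, broad) and through them a sequence of nuclear receptors including Hr3, Hr4 and Ftz-f1. Juvenile hormone acts through the receptor Met and its target Kr-h1. In H. saltator, workers can become reproductives called gamergates, and the change in status is accompanied by lower juvenile hormone and higher ecdysteroid. Gene roles given here are known mainly from Drosophila and vertebrates.

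After 24 h of 20E, genes of the ecdysone cascade rose up to 14.4-fold, cell adhesion and axon guidance genes such as Dscam2 and sli rose with them, and the neprilysin-type peptidase gene Nep5 fell 20.7-fold. In all, 515 of 9873 genes were called (limma, Benjamini-Hochberg adjusted p under 0.05; 5.22% of genes tested), of which 314 were higher after 24 h of 20E (3.18%) and 201 were lower (2.04%). On the log2(FPKM + 1) scale more of the rises were large: 120 of the 314 exceeded 1 in size and 13 exceeded 2, against 55 and 4 of the 201 falls. That scale compresses changes at low FPKM. Mean FPKM after 24 h had a median of 7.81 over the falls and 21.1 over the rises. The median log2 fold change was 0.87 over the rises and -0.72 over the falls, and -0.02 over all genes tested. At an unadjusted p under 0.05 there were 1721 genes.

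**Figure D1:**
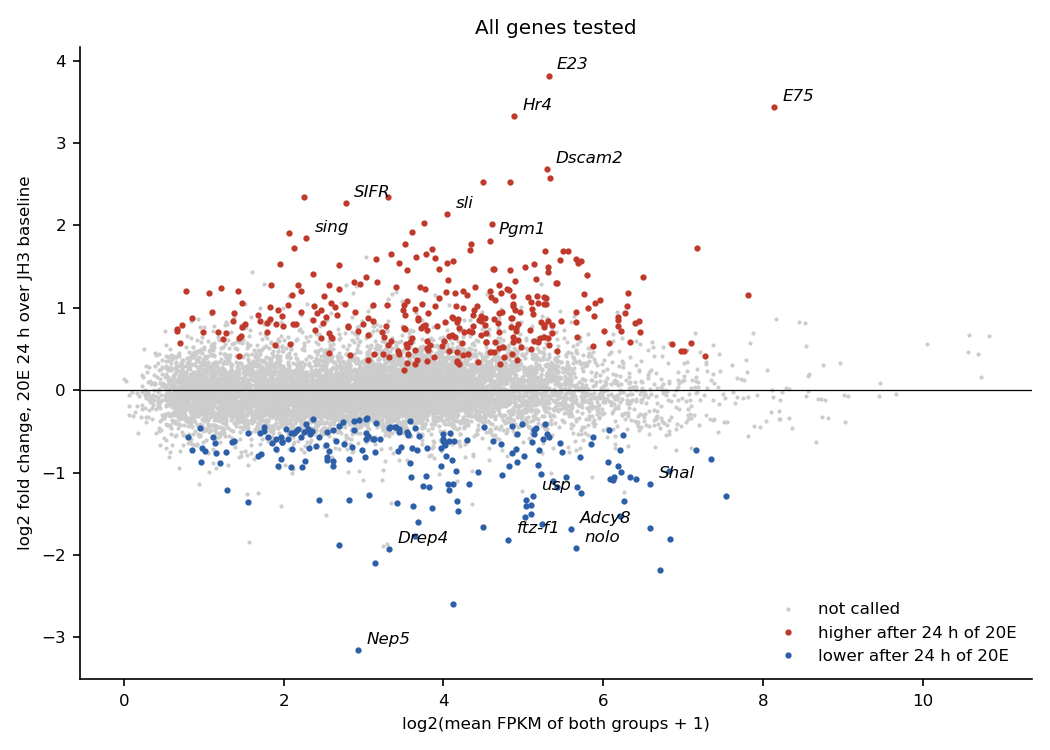
Log2 fold change (20E 24 h over JH3 baseline, limma) against log2 of the mean FPKM of both groups plus 1, with 1 point per gene tested. Red points are the 314 genes called higher and blue points the 201 called lower; E23, E75 and Hr4 lie highest and Nep5 lowest.

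The 4 libraries of the 24 h group held 6672462 to 10640939 reads and the 4 of the JH3 baseline 8188873 to 17569955 (read numbers recovered from the FPKM table). Sequencing runs, taken from run codes in the labels and called A, B and C here, were not spread evenly: the 24 h libraries came from runs B and C, the JH3 baseline from runs B and A. Run B alone held 2 libraries of each group, and there 89 genes were called (60 higher, 29 lower), 82 of them among the 515. JH3 baseline replicate 4 stood apart from its group, with a median correlation of 0.944 to the other 3 baseline libraries, where those had 0.966 to 0.971 and the 24 h libraries 0.978 to 0.985. Without it 542 genes were called. Leaving out JH3 baseline replicate 1 gave 338 and leaving out 24 h replicate 1 gave 337.

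The ecdysone response list held 13 tested genes, of which 8 rose, 3 fell and 2 were not called. Over all genes tested, 3.18% rose and 2.04% fell. E75, a nuclear receptor and early gene, had 627, 395, 537 and 507 FPKM in the 24 h libraries, against 59.4, 45.6, 44.3 and 30.6 FPKM in the JH3 baseline. All 4 libraries given 20E were far above all 4 of the baseline, and the log2 fold change was 3.44 ± 0.25 (SE; limma adjusted p = 2.82e-10; 3.45 in run B alone). E23, an ABC transporter that in Drosophila is induced by ecdysone and lowers its intracellular level, had 84.1, 61.6, 58.2 and 86.2 FPKM after 24 h of 20E, against 3.37, 6.08, 3.52 and 7.21 FPKM at the JH3 baseline, a 14.4-fold difference of means (log2 3.82 ± 0.38, adjusted p = 5.97e-08; 3.67 in run B alone). It was the largest rise of any gene with a symbol.

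Hr4, a nuclear receptor of the middle of the cascade, had 62.1, 44.04, 47.99 and 53.2 FPKM in the 24 h libraries, against 7.46, 6.65, 5.48 and 1.63 FPKM at baseline. The groups were far apart, and the lowest value was that of JH3 baseline replicate 4 (log2 3.32 ± 0.48, adjusted p = 2.45e-05; 2.79 in run B alone). Hr3, the receptor that in Drosophila activates ftz-f1, had 81.8, 71.9, 67.8 and 77.4 FPKM after 24 h of 20E, against 24.6, 28.7, 22.1 and 20.1 FPKM at baseline. The Hr3 log2 fold change was 1.59 ± 0.23 (adjusted p = 2.21e-05; 1.45 in run B alone). Hr39, related in sequence to Ftz-f1, had 17.1, 15.2, 14.8 and 16.5 FPKM after 24 h of 20E, against 4.39, 5.87, 5.18 and 5.88 FPKM at baseline. The Hr39 log2 fold change was 1.46 ± 0.18 (adjusted p = 2.27e-06; 1.47 in run B alone). Within both of these receptors the 4 values of a group lay close together, and the groups were far apart.

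Eip74EF, the ETS factor known as E74, had 55.7, 40.4, 52.2 and 56.4 FPKM after 24 h of 20E, against 17.7, 24.98, 14.8 and 10.1 FPKM at baseline. The Eip74EF log2 fold change was 1.54 ± 0.22 (adjusted p = 2.92e-05; 1.32 in run B alone). Eip63E, a cyclin-dependent kinase, had 50.3, 44.6, 45.5 and 46.5 FPKM after 24 h, against 28.6, 32.2, 30.6 and 30.8 FPKM at baseline, a smaller rise with tight groups (log2 0.64 ± 0.13, adjusted p = 0.00307; 0.64 in run B alone). Eip93F (E93), the adult specifier of metamorphosis, had 78.2, 41.9, 58.96 and 56.3 FPKM after 24 h and 29.9, 28.4, 23.1 and 15.9 FPKM at baseline, with no overlap but wide groups (log2 1.30 ± 0.37, adjusted p = 0.0356; 1.19 in run B alone). Its call was lost without JH3 baseline replicate 3 (adjusted p = 0.0836) or 4 (0.1101), and without 24 h replicate 1 (0.171), 3 (0.0991) or 4 (0.0616).

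Both receptor partners were lower, usp clearly and Ecr at the edge of the threshold. usp had 25.9, 15.3, 21.3 and 15.9 FPKM in the 24 h libraries, against 46.7, 63.1, 44.2 and 37.03 FPKM at the JH3 baseline, with no overlap (log2 -1.28 ± 0.28, adjusted p = 0.00403; -1.17 in run B alone). Ecr had 6.53, 5.58, 5.42 and 5.65 FPKM after 24 h, against 7.82, 11.3, 7.13 and 8.22 FPKM at baseline. The Ecr log2 fold change was -0.52 ± 0.16 (adjusted p = 0.0492; -0.58 in run B alone). The Ecr groups did not overlap, but the call was lost on leaving out JH3 baseline replicate 1 (adjusted p = 0.0834), 2 (0.197) or 4 (0.0622) or 24 h replicate 2 (0.106), 3 (0.125) or 4 (0.116). ftz-f1, the competence factor that follows a falling ecdysone pulse in Drosophila, had 15.02, 7.79, 13.2 and 9.695 FPKM after 24 h, against 40.6, 69.2, 40.5 and 20.6 FPKM at baseline, where replicate 4 was the lowest (log2 -1.81 ± 0.34, adjusted p = 0.000935; -1.84 in run B alone). In run B alone, 5 of the 13 list genes were called, all higher, and without JH3 baseline replicate 4, 7 were higher and 2 lower.

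The 2 members not called were br and Hr38. br (broad), a zinc finger factor and early gene in Drosophila, had 8.895, 9.15, 6.04 and 9.69 FPKM after 24 h and 3.83, 12.5, 4.74 and 12.96 FPKM at baseline, where replicates 2 and 4 were above every 24 h library and replicates 1 and 3 below (log2 0.01 ± 0.41, adjusted p = 0.993). Hr38, the insect NR4A receptor, had 57.8, 28.2, 50.003 and 44.3 FPKM after 24 h and 34.7, 36.2, 31.1 and 28.8 FPKM at baseline, and the groups overlapped (log2 0.40 ± 0.59, adjusted p = 0.753).

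Of the juvenile hormone list only Kr-h1, the transcription factor through which the hormone represses metamorphosis, was both matched by symbol and high enough to test. It had 48.8, 49.9, 38.5 and 58.8 FPKM in the 24 h libraries, against 13.995, 36.9, 18.3 and 40.7 FPKM at the JH3 baseline, where replicates 1 and 3 were low and 2 and 4 high. The groups overlapped and the difference was not called (log2 0.87 ± 0.43, adjusted p = 0.295). Kr-h1 was therefore not shown to be lower a day after JH3 was exchanged for 20E. Of 3 tested genes for ecdysteroid synthesis, uptake and breakdown, Cyp18a1, the P450 that inactivates 20E, was the 1 called: it had 3.25, 0.8301, 2.26 and 1.52 FPKM after 24 h, against 0.191, 0.424, 0.281 and 0.07399 FPKM at baseline. All 4 libraries of the 24 h group were above all 4 of the baseline, at a level that stayed low (log2 1.18 ± 0.18, adjusted p = 7.11e-05; 1.51 in run B alone). The importer Oatp74D (log2 0.10, adjusted p = 0.893) and nvd, an early enzyme of ecdysteroid synthesis (log2 -0.45, adjusted p = 0.190), were not called.

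**Figure D2:**
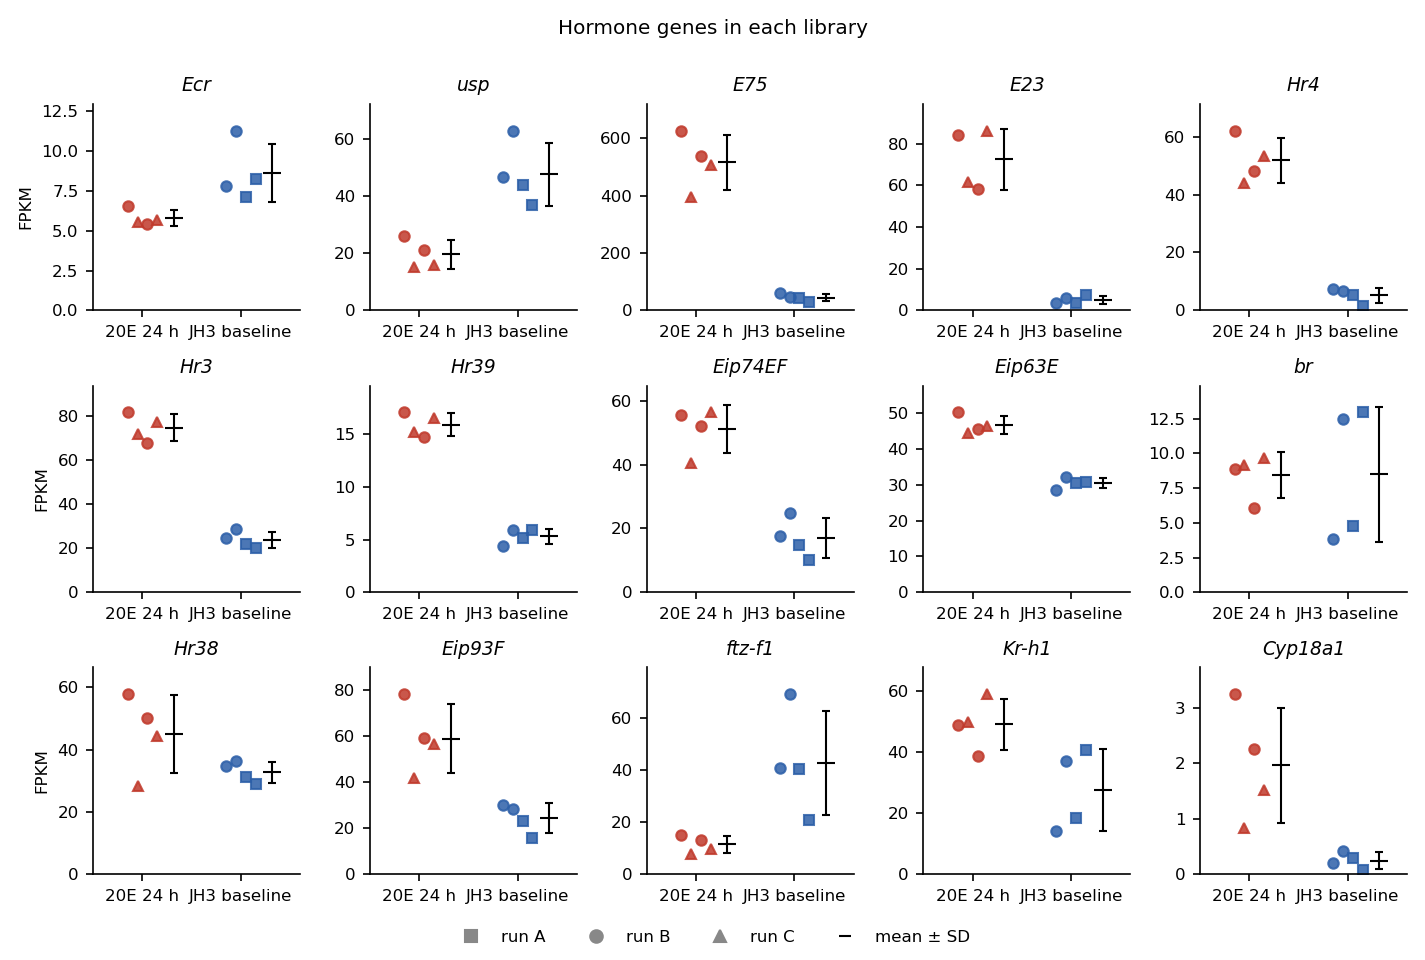
FPKM of the 13 ecdysone response genes, Kr-h1 and Cyp18a1 in each of the 4 libraries given 20E for 24 h (red) and the 4 of the JH3 baseline (blue); marker shape gives the sequencing run, and the bar is the mean with SD. E75 lay at 395 to 627 FPKM after 24 h of 20E, against 30.6 to 59.4 at baseline, while br and Hr38 overlapped.

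Adhesion and guidance genes, which set how axons and dendrites recognise each other and find their paths, were another list with several rises. Of 17 tested, 6 rose and none fell, where 3.18% of all genes tested rose. The median log2 fold change was 0.40, against -0.02 over all genes tested, and run B alone called 2. Without JH3 baseline replicate 4 there were again 6, and with the length covariate described below 6 rose and 1 fell. In the difference from the opposite switch, 20E cultures given JH3 for 24 h, 4 were called (sli, Dscam2, Sema1a and Dscam3). stan and PlexA were not called there, and the Dscam3 call was lost in 2 of 16 leave-outs. Dscam2, an immunoglobulin-type adhesion molecule by which neurites of like cells avoid each other in Drosophila, had 60.99, 71.6, 49.8 and 86.3 FPKM after 24 h of 20E, against 7.58, 13.04, 6.27 and 10.2 FPKM at the JH3 baseline (7.24-fold; log2 2.69 ± 0.34, adjusted p = 3.01e-06; 2.35 in run B alone). sli (slit), the secreted repellent of the Robo receptors, had 27.1, 23.5, 22.8 and 30.1 FPKM after 24 h, against 3.18, 6.65, 3.64 and 7.404 FPKM at baseline (4.96-fold; log2 2.14 ± 0.22, adjusted p = 1.02e-07; 2.19 in run B alone). For both, the 24 h libraries were far above every baseline library.

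Dscam3, a relative of Dscam2, had 21.4, 23.9, 22.03 and 31.5 FPKM after 24 h, against 5.403, 10.1, 6.43 and 10.3 FPKM at baseline. The Dscam3 log2 fold change was 1.57 ± 0.30 (adjusted p = 0.000992; 1.43 in run B alone). Sema1a, a membrane-bound semaphorin that acts as ligand and receptor, had 112, 111, 109 and 125 FPKM after 24 h, against 60.9, 63.7, 48.3 and 61.3 FPKM at baseline. The Sema1a log2 fold change was 0.84 ± 0.17 (adjusted p = 0.00185; 0.81 in run B alone). PlexA, the plexin that binds Sema1a, had 48.1, 37.5, 41.5 and 50.2 FPKM after 24 h, against 21.6, 35.3, 22.4 and 32.4 FPKM at baseline. The PlexA log2 fold change was 0.64 ± 0.19 (adjusted p = 0.0455; 0.67 in run B alone). None of these 3 overlapped between groups, but the PlexA call was lost without JH3 baseline replicate 1 (adjusted p = 0.237) or 3 (0.149), or 24 h replicate 1 (0.171), 3 (0.0936) or 4 (0.121). stan (starry night, also flamingo), a large cadherin of axon and dendrite patterning, had 50.6, 54.2, 44.2 and 71.4 FPKM after 24 h and 7.18, 22.3, 8.99 and 41.5 FPKM at baseline, where replicates 1 and 3 were low and 2 and 4 high (log2 1.69 ± 0.39, adjusted p = 0.00726; 1.81 in run B alone). Without JH3 baseline replicate 1 stan was not called (adjusted p = 0.0667).

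The other 11 list members were not called. Among them Fas2, a homophilic adhesion molecule, averaged 36.1 FPKM after 24 h and 56.9 FPKM at baseline (log2 -0.75, adjusted p = 0.0890), and Nrx-1, the presynaptic neurexin, averaged 113 FPKM after 24 h and 80.7 FPKM at baseline (log2 0.52, adjusted p = 0.283). Outside the list, Nrt (neurotactin), an adhesion protein of axon outgrowth, was among the 15 largest rises, with 37.6, 28.6, 36.2 and 41.3 FPKM after 24 h, against 6.32, 11.2, 7.31 and 17.8 FPKM at baseline. The Nrt log2 fold change was 2.02 ± 0.28 (adjusted p = 1.22e-05; 2.00 in run B alone). Further adhesion and receptor phosphatase genes, singled out after their values were seen, were higher too. Ptp10D, a receptor tyrosine phosphatase of motor axon guidance, averaged 34.7 ± 6.31 FPKM after 24 h and 12.3 ± 2.57 FPKM at baseline (SD, n = 4 each; log2 1.47 ± 0.26, adjusted p = 0.000461). Lar, another such phosphatase, averaged 109.8 ± 17.2 FPKM after 24 h and 47.2 ± 5.503 FPKM at baseline. The Lar log2 fold change was 1.18 ± 0.29 (adjusted p = 0.0119). Its call was lost without 24 h replicate 1 (adjusted p = 0.0704). Ten-m, a teneurin that matches synaptic partners, averaged 39.6 ± 4.46 FPKM after 24 h and 17.1 ± 4.57 FPKM at baseline. The Ten-m log2 fold change was 1.03 ± 0.21 (adjusted p = 0.00235). The immunoglobulin protein ed (echinoid) averaged 17.9 ± 5.34 FPKM after 24 h and 7.42 ± 2.68 FPKM at baseline. The ed log2 fold change was 1.23 ± 0.22 (adjusted p = 0.000492). In run B alone these 4 had log2 fold changes of 1.59, 1.19, 0.94 and 1.14.

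Receptors and channels moved in both directions. SIFR, the receptor of the neuropeptide SIFamide, had 10.1, 10.995, 10.1 and 8.66 FPKM in the 24 h libraries, against 1.48, 3.42, 1.42 and 0.605 FPKM at the JH3 baseline (5.77-fold; log2 2.27 ± 0.41, adjusted p = 0.000462; 1.75 in run B alone). Its peptide SIFa was near 1 FPKM in both groups (mean 1.39 after 24 h, 1.08 at baseline) and was not called (adjusted p = 0.824). Elk, a voltage-gated potassium channel of the eag family, had 69.02, 55.5, 58.5 and 76.9 FPKM after 24 h, against 19.9, 27.1, 16.6 and 21.5 FPKM at baseline. The Elk log2 fold change was 1.58 ± 0.25 (adjusted p = 7.79e-05; 1.41 in run B alone). Shal, the potassium channel of the fast dendritic A-type current, was lower, with 73.7, 44.3, 72.3 and 50.9 FPKM after 24 h, against 212, 117, 119.97 and 71.4 FPKM at baseline. JH3 baseline replicate 4 lay within the 24 h range, so the Shal groups overlapped (log2 -1.14 ± 0.22, adjusted p = 0.00146; -1.10 in run B alone).

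Of the 12 listed channel genes, nAChRalpha1, a subunit of the nicotinic acetylcholine receptors that carry fast excitation in insect brains, was the only rise, beside Shal as the only fall (5 fell where gene length was a covariate): it had 73.8, 41.5, 51.1 and 61.5 FPKM after 24 h, against 21.3, 24.5, 20.05 and 16.04 FPKM at baseline. The nAChRalpha1 log2 fold change was 1.498 ± 0.34 (adjusted p = 0.00571; 1.39 in run B alone). The 8 nicotinic subunits with symbols were then counted together, a set chosen after its values were seen. Of these, 4 rose and none fell, where 3.18% of all genes tested rose. None of the 8 was called in the difference from the opposite switch, 20E cultures given JH3 for 24 h. In that switch all 8 had positive log2 fold changes (median 0.30), none called. Without JH3 baseline replicate 4, 2 rose, and none was called in run B alone. nAChRa3 had 30.9, 27.1, 27.1 and 31.8 FPKM after 24 h, against 15.7, 15.6, 12.6 and 15.5 FPKM at baseline. The nAChRa3 log2 fold change was 0.87 ± 0.16 (adjusted p = 0.000492; 0.84 in run B alone). nAChRalpha2 averaged 19.8 ± 1.43 FPKM after 24 h and 13.4 ± 2.47 FPKM at baseline (adjusted p = 0.0281), and nAChRbeta2 averaged 30.2 ± 2.04 FPKM after 24 h and 22.1 ± 2.51 FPKM at baseline (adjusted p = 0.01603). Both of these calls were lost without JH3 baseline replicate 1 (adjusted p = 0.0942 for nAChRalpha2 and 0.0532 for nAChRbeta2), without JH3 baseline replicate 4 (0.0904 and 0.0586) and without 24 h replicate 3 (0.0884 and 0.0552); nAChRalpha2 was also lost without 24 h replicate 4 (0.0765) and nAChRbeta2 without 24 h replicate 1 (0.0675). GABA-B-R2, a metabotropic GABA receptor subunit also chosen after its values were seen, averaged 45.02 ± 4.48 FPKM after 24 h and 21.9 ± 2.51 FPKM at baseline. The GABA-B-R2 log2 fold change was 0.98 ± 0.23 (adjusted p = 0.00691).

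Genes that mark transmitter identity did not pass the test. None of 10 transmitter synthesis and transport genes, 10 neuropeptide genes, or 6 general neuron markers was called, with median log2 fold changes of 0.29, 0.18 and 0.18. ChAT, which makes acetylcholine, averaged 34.7 FPKM after 24 h and 31.3 FPKM at baseline (adjusted p = 0.572), and Gad1, which makes GABA, averaged 41.6 FPKM after 24 h and 39.2 FPKM at baseline (adjusted p = 0.973). Immediate early genes (2), heat shock and unfolded protein genes (6), apoptosis and autophagy genes (8) and insulin pathway genes (6) also had no call. A missing call does not show that levels were equal. With only the compared groups and no run term, 3 transmitter genes and 1 neuron marker were called higher, and 1 heat shock list gene lower. With library weights, 2 transmitter genes, 1 neuron marker, 1 apoptosis and autophagy list gene and 2 insulin pathway genes were called higher. The same weights called 1 neuropeptide gene and 2 heat shock list genes lower. Of 4 clock genes, Clk, the activator of the feedback loop, rose, and per (period), its repressor, fell. Clk had 14.7, 19.02, 12.9 and 17.4 FPKM after 24 h, against 7.06, 9.31, 8.88 and 8.27 FPKM at baseline. The Clk log2 fold change was 0.76 ± 0.21 (adjusted p = 0.0295; 0.70 in run B alone). per had 4.28, 1.89, 3.44 and 2.37 FPKM after 24 h, against 6.48, 7.16, 9.24 and 3.72 FPKM at baseline, where replicate 4 lay within the 24 h range (log2 -0.85 ± 0.22, adjusted p = 0.0153; -0.69 in run B alone). The Clk call was lost without JH3 baseline replicate 1 (adjusted p = 0.138) or 24 h replicate 1 (0.0751), 2 (0.0781) or 4 (0.06497), and the per call without JH3 baseline replicate 1 (0.0561), 2 (0.0572) or 3 (0.0741) or 24 h replicate 2 (0.0636) or 4 (0.0509). The hour of day at which cultures were lysed is not given in the sources used here.

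Among the other large rises, Pgm1, phosphoglucomutase, which joins glycolysis and glycogen, had 31.03, 38.7, 29.5 and 41.2 FPKM after 24 h of 20E, against 8.97, 11.2, 8.68 and 13.9 FPKM at the JH3 baseline, one of the tightest large rises (log2 1.82 ± 0.17, adjusted p = 2.49e-08; 1.51 in run B alone). GlyS, glycogen synthase, singled out after its values were seen, had 10.4, 7.04, 10.4 and 9.07 FPKM after 24 h, against 3.82, 2.85, 3.29 and 4.46 FPKM at baseline. The GlyS log2 fold change was 0.95 ± 0.20 (adjusted p = 0.00309; 1.41 in run B alone). Gbs-76A, a subunit that targets a phosphatase to glycogen and chosen in the same way, averaged 9.18 ± 0.189 FPKM after 24 h and 4.78 ± 1.23 FPKM at baseline (adjusted p = 0.0236; 0.67 in run B alone), and its call was lost without JH3 baseline replicate 3 (adjusted p = 0.0951) or 24 h replicate 1 (0.0804) or 3 (0.0707). Myc, the growth regulator, had 8.49, 8.58, 7.44 and 7.702 FPKM after 24 h, against 2.79, 2.38, 2.77 and 3.396 FPKM at baseline. The Myc log2 fold change was 1.23 ± 0.14 (adjusted p = 9.21e-07; 1.32 in run B alone). yki (yorkie), the effector of the Hippo pathway, had 28.3, 25.04, 23.4 and 28.1 FPKM after 24 h, against 11.2, 11.3, 8.84 and 13.1 FPKM at baseline. The yki log2 fold change was 1.16 ± 0.17 (adjusted p = 4.36e-05; 1.12 in run B alone). Both were chosen after their values were seen, and for both the groups were well separated.

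Atg17, a scaffold protein of autophagy initiation that was not on the autophagy list and was chosen after its values were seen, had 82.5, 68.8, 69.3 and 87.7 FPKM after 24 h, against 26.2, 29.3, 28.3 and 21.5 FPKM at baseline (log2 1.57 ± 0.26, adjusted p = 0.000162; 1.42 in run B alone); its partner Atg1 had means of 28.8 FPKM after 24 h and 28.7 FPKM at baseline and was not called. imd, the adaptor of an innate immune pathway, had 7.94, 12.9, 9.87 and 12.5 FPKM after 24 h, against 2.36, 3.99, 3.94 and 3.65 FPKM at baseline. The imd log2 fold change was 1.38 ± 0.15 (adjusted p = 3.40e-07; 1.27 in run B alone). sing (singles bar), known for muscle cell fusion in Drosophila, had 6.76, 4.7002, 7.04 and 7.47 FPKM after 24 h, against 0.499, 1.01, 1.62 and 1.903 FPKM at baseline (5.16-fold; log2 1.85 ± 0.24, adjusted p = 7.22e-06; 2.19 in run B alone). No muscle gene of the 8 tested was called beside it. gukh, a synaptic scaffold partner of Discs large, averaged 16.3 ± 3.44 FPKM after 24 h and 4.55 ± 2.62 FPKM at baseline. The gukh log2 fold change was 1.77 ± 0.32 (adjusted p = 0.000492; 1.74 in run B alone). The membrane protein gene pxb averaged 30.1 ± 3.88 FPKM after 24 h and 8.36 ± 2.09 FPKM at baseline. The pxb log2 fold change was 1.78 ± 0.21 (adjusted p = 9.21e-07; 1.63 in run B alone). mthl1, a methuselah-like G protein-coupled receptor, averaged 20.8 ± 2.97 FPKM after 24 h and 6.24 ± 2.54 FPKM at baseline (log2 1.71 ± 0.42, adjusted p = 0.0111; 1.55 in run B alone), a call lost without JH3 baseline replicate 3 (adjusted p = 0.0538).

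The largest fall was Nep5, a neprilysin-type metallopeptidase; enzymes of this family cleave neuropeptides. It had 0.534, 0.401, 1.001 and 0.504 FPKM in the 24 h libraries, against 12.4, 23.4, 7.94 and 6.62 FPKM at the JH3 baseline. Every 24 h library was near or under 1 FPKM and every baseline library above 6, a 20.7-fold lower mean (log2 -3.16 ± 0.23, adjusted p = 2.82e-10; -3.37 in run B alone). Drep4, related to the nuclease that cuts DNA in apoptosis, had 4.08, 2.52, 4.01 and 2.76 FPKM after 24 h, against 13.4, 19.6, 15.1 and 10.2 FPKM at baseline. The Drep4 log2 fold change was -1.93 ± 0.21 (adjusted p = 2.64e-07; -1.77 in run B alone). nolo, a secreted ADAMTS-like matrix protein needed for nerve cord structure, had 22.6, 21.2, 20.5 and 21.8 FPKM after 24 h, against 88.3, 117, 75.02 and 29.9 FPKM at baseline. The nolo values of the 24 h group were nearly equal, and JH3 baseline replicate 4 was far below the other baseline libraries but above the 24 h group (log2 -1.92 ± 0.31, adjusted p = 0.000117; -2.19 in run B alone).

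Several other falls were signalling and membrane genes. Adcy8, an adenylate cyclase that makes cyclic AMP, had 26.5, 10.9, 29.03 and 19.4 FPKM after 24 h, against 94.98, 82.3, 73.4 and 43.5 FPKM at baseline. The Adcy8 log2 fold change was -1.68 ± 0.29 (adjusted p = 0.000357; -1.64 in run B alone). Cbl, a ubiquitin ligase that turns off receptor tyrosine kinases, had 21.5, 15.4, 18.5 and 17.5 FPKM after 24 h, against 56.4, 46.4, 53.96 and 36.9 FPKM at baseline. The Cbl log2 fold change was -1.39 ± 0.25 (adjusted p = 0.000454; -1.32 in run B alone). klu (klumpfuss), a zinc finger factor of neural precursors, had 2.67, 1.35, 2.13 and 1.61 FPKM after 24 h, against 7.31, 6.03, 6.81 and 7.398 FPKM at baseline. The klu log2 fold change was -1.34 ± 0.24 (adjusted p = 0.000402; -1.17 in run B alone). In each of these 3 the highest 24 h library was below the lowest baseline library. Eaat2, a transporter of excitatory amino acids chosen after its values were seen, had 127, 105, 123 and 125 FPKM after 24 h, against 267, 239, 205 and 108 FPKM at baseline, where replicate 4 fell within the 24 h range (log2 -0.84 ± 0.17, adjusted p = 0.00185; -1.01 in run B alone). Oatp26F, an organic anion transporter, had 63.3, 32.8, 58.7 and 63.2 FPKM after 24 h, against 137, 137, 118 and 60.2 FPKM at baseline, with the same overlap (log2 -1.08 ± 0.23, adjusted p = 0.00315; -1.15 in run B alone).

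Rpb8, a subunit shared by the nuclear RNA polymerases, averaged 20.3 ± 2.51 FPKM after 24 h and 43.2 ± 4.75 FPKM at baseline. The Rpb8 log2 fold change was -1.34 ± 0.23 (adjusted p = 0.000225; -1.02 in run B alone). unc-13-4A, related to the Munc13-4 priming factor of secretion, averaged 31.6 ± 6.28 FPKM after 24 h and 71.9 ± 24.3 FPKM at baseline. The unc-13-4A log2 fold change was -1.25 ± 0.26 (adjusted p = 0.00227; -1.30 in run B alone). Ir76b, a coreceptor of ionotropic chemosensory receptors, averaged 7.78 ± 1.19 FPKM after 24 h and 18.6 ± 2.72 FPKM at baseline. The Ir76b log2 fold change was -1.18 ± 0.21 (adjusted p = 0.000544; -1.25 in run B alone). These 3 kept their calls whichever single library was left out. cv-c averaged 25.8 ± 5.33 FPKM after 24 h and 57.5 ± 15.8 FPKM at baseline. The cv-c log2 fold change was -1.17 ± 0.25 (adjusted p = 0.00329; -1.28 in run B alone). Timp, the tissue inhibitor of metalloproteases, averaged 7.83 ± 1.94 FPKM after 24 h and 16.95 ± 6.85 FPKM at baseline (log2 -1.16 ± 0.29, adjusted p = 0.01396; -1.02 in run B alone) and lost its call without JH3 baseline replicate 4 (adjusted p = 0.0602) or 24 h replicate 3 (0.0632). fw (furrowed), a selectin-like adhesion protein, averaged 0.341 ± 0.143 FPKM after 24 h and 2.55 ± 1.61 FPKM at baseline (log2 -1.21 ± 0.33, adjusted p = 0.0255; -1.12 in run B alone), a call lost without JH3 baseline replicate 1 (adjusted p = 0.0631) or 4 (0.1) or 24 h replicate 1 (0.0827), 2 (0.0579) or 3 (0.0685).

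Lower genes of fuel and amino acid metabolism, picked after their values were seen, changed less. Mcad, which oxidises medium-chain fatty acids, had 6.06, 6.56, 6.14 and 6.27 FPKM after 24 h, against 10.98, 8.03, 8.22 and 8.91 FPKM at baseline. The Mcad log2 fold change was -0.59 ± 0.11 (adjusted p = 0.0006899). Cth, which makes cysteine, had 2.98, 2.61, 2.61 and 2.64 FPKM after 24 h, against 4.87, 4.6004, 4.78 and 4.04 FPKM at baseline. The Cth log2 fold change was -0.57 ± 0.14 (adjusted p = 0.0109). Neither overlapped between groups, and the log2 fold changes in run B alone were -0.55 for Mcad and -0.60 for Cth. bigmax, the partner of the sugar sensor Mondo, had 9.55, 9.41, 8.99 and 9.29 FPKM after 24 h, against 17.9, 14.1, 19.1 and 14.9 FPKM at baseline. The bigmax log2 fold change was -0.70 ± 0.11 (adjusted p = 0.000126; -0.72 in run B alone).

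**Figure D3:**
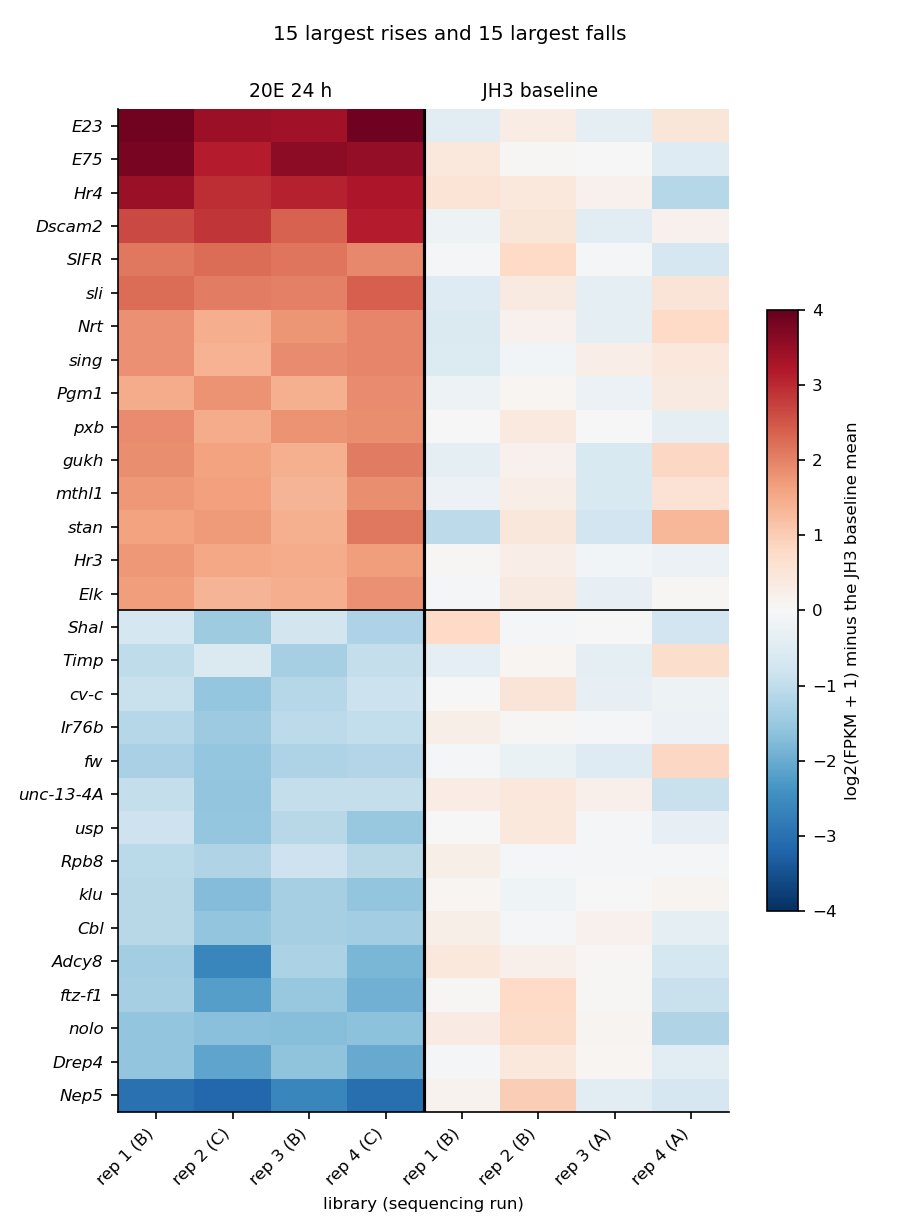
Difference of log2(FPKM + 1) from the mean of the JH3 baseline for the called genes with a symbol and a mean of at least 2 FPKM in 1 group that moved most, 15 up and 15 down, in the 4 libraries of 20E 24 h (left) and the 4 of the JH3 baseline (right), with the sequencing run in brackets. The groups do not overlap for 29 of the 30 genes, Shal being the exception, and baseline replicate 4 is the nearest of its group to the 24 h libraries for nolo and stan and the farthest from them for Hr4.

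In run B alone, whose 4 libraries are among the 8 used to choose these 30 genes, all 30 had the same direction, which the choice favours, and 11 of the 15 rises and 4 of the 15 falls were called with 2 libraries a group. Over all genes tested the groups did not overlap for 930 genes with the 24 h libraries higher (9.42%) and 788 with them lower (7.98%). Among called genes this held for 300 of the 314 rises and 154 of the 201 falls. Most called genes were protein coding (301 rises, 197 falls), and 12 long non-coding RNAs rose and 4 fell of 505 tested.

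A symbol was available for 132 of the 314 rises and 77 of the 201 falls, and some of the largest changes were genes known by number only. LOC105185423 had 75.9, 46.4, 55.4 and 88.004 FPKM after 24 h, against 7.23, 19.2, 10.4 and 12.8 FPKM at baseline. The LOC105185423 log2 fold change was 2.58 ± 0.44 (adjusted p = 0.000261). LOC105181303 had 53.1, 45.2, 42.5 and 49.7 FPKM after 24 h, against 6.58, 7.83, 4.91 and 10.1 FPKM at baseline. The LOC105181303 log2 fold change was 2.53 ± 0.26 (adjusted p = 8.86e-08). Both were far above every baseline library, and LOC105181303 had 51.1 ± 22.7 FPKM in the 20E baseline (SD, n = 5). On the other side, LOC105180846 had 5.17, 1.97, 5.49 and 4.17 FPKM after 24 h, against 32.1, 42.4, 26.7 and 12.5 FPKM at baseline. The LOC105180846 log2 fold change was -2.59 ± 0.26 (adjusted p = 5.97e-08). LOC105187962 had 41.2, 24.99, 36.7 and 35.9 FPKM after 24 h, against 216, 239, 190.4 and 41.9 FPKM at baseline, where replicate 4 was close to the 24 h group (log2 -2.18 ± 0.36, adjusted p = 0.000205). These IDs were chosen after their values were seen, and the annotation used here gives them no function.

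Markers of cell types were read to see what the cultures held. Neuron markers summed to 441.5 to 484.1 FPKM in the 24 h libraries, against 303.6 to 441.4 FPKM at the JH3 baseline (means 461 and 393). Every 24 h library was above every baseline library, the nearest by a narrow margin. Glia markers summed to 32.3 to 54.8 FPKM after 24 h, against 23.2 to 49.2 FPKM at baseline. Muscle markers summed to 67.4 to 79.0 FPKM after 24 h, against 56.9 to 72.1 FPKM at baseline. Neuron markers thus had by far the highest of the 3 sums, but sums over 6, 4 and 9 different genes do not rank cell types. The largest members of the muscle sum were Tm1 (mean 32.3 FPKM after 24 h) and Mlc1 (14.8 FPKM). Mlc2, wupA and sls averaged under 1 FPKM in both groups, so the sum does not show muscle cells. In bulk RNA, fewer cells of a type and less RNA per cell cannot be told apart. Of 4 glia markers only Gs2, glutamine synthetase, was called: it had 13.5, 22.3, 11.7 and 16.04 FPKM after 24 h, against 9.84, 8.26, 7.01 and 6.45 FPKM at baseline. The Gs2 log2 fold change was 0.85 ± 0.23 (adjusted p = 0.0223; 0.44 in run B alone). The call was lost without JH3 baseline replicate 3 (adjusted p = 0.0708) or 4 (0.0677) or 24 h replicate 1 (0.0535) or 2 (0.0818). repo, the defining glial factor, averaged 12.5 FPKM after 24 h and 14.2 FPKM at baseline and was not called.

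Hemocyte and matrix genes summed to 55.1 to 75.9 FPKM after 24 h, against 71.6 to 159 FPKM at baseline. The only one of 9 called was nolo, with a mean of 21.5 FPKM after 24 h and 77.5 FPKM at baseline. The log2 fold change was positive for 8 of the 9, so the lower sum came from nolo and not from the other members. Fat body markers summed to 3.55 to 5.76 FPKM after 24 h, against 2.67 to 6.37 FPKM at baseline, and the storage proteins Hex110 and Hex70a were under 1 FPKM in every one of these 8 libraries. Photoreceptor markers summed to 4.07 to 5.59 FPKM after 24 h, against 2.86 to 13.1 FPKM at baseline, with Lop1, ninaC, trp and trpl under 1 FPKM throughout. No muscle, fat body or photoreceptor gene was called. The part of these cell types in the gene changes was not tested.

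Housekeeping groups had no call but small shifts. The 56 cytosolic ribosomal protein genes had a median log2 fold change of -0.40 with all 56 negative, the 49 respiratory chain genes -0.18, the 30 proteasome genes -0.17 and the 31 tRNA synthetases -0.04. Gene length moved with this: the slope of log2 level, relative to the mean over all libraries, per doubling of gene length was 0.00879 to 0.0706 in the 24 h libraries, against -0.0885 to 0.0274 at baseline. With that slope as a covariate the medians were -0.03, 0.02 and 0.04 for ribosomal, respiratory chain and proteasome genes, and 738 genes were called in all. With library weights 4 ribosomal, 11 respiratory chain and 3 proteasome genes were called lower. With only the compared groups and no run term, 12 ribosomal genes were called lower, and no respiratory chain or proteasome gene.

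Set against 6 h of 20E in the same JH3 cultures, the 24 h libraries differed in 277 genes (2.81% of genes tested), 132 higher (1.34%) and 145 lower (1.47%). Of the 13 ecdysone list genes 5 were higher and 3 lower at 24 h than at 6 h. With each of 10 libraries left out in turn, only E23, Hr3 and usp of these always kept their calls. The call was lost in 4 cases for Hr4, in 7 each for Hr39 and ftz-f1, and in 8 each for Eip63E and Ecr. Within run B alone, 2 libraries against 2, 1 gene was called. E75 stood at 517 ± 96.01 FPKM at 24 h (SD, n = 4) and 488 ± 69.7 FPKM at 6 h (n = 6), with a log2 difference of 0.03 ± 0.22 (24 h minus 6 h; adjusted p = 0.967). Cyp18a1 stood at 1.96 ± 1.04 FPKM at 24 h and 1.84 ± 0.7499 FPKM at 6 h (log2 -0.01 ± 0.16, adjusted p = 0.975), and sing at 6.49 ± 1.23 FPKM at 24 h and 9.36 ± 2.52 FPKM at 6 h (log2 -0.40 ± 0.22, adjusted p = 0.384). These 3 were thus already high at 6 h and not called different at 24 h.

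Other genes were closer to baseline than to the 24 h level at 6 h. E23 had 58.2 to 86.2 FPKM at 24 h, against 6 h values of 6.61 lowest, 8.18 median and 14.2 highest FPKM (log2 difference 3.04 ± 0.34, adjusted p = 1.12e-06). sli had 22.8 to 30.1 FPKM at 24 h, against values of 5.37 lowest, 6.25 median and 8.54 highest FPKM at 6 h (log2 1.83 ± 0.20, adjusted p = 7.41e-07). Dscam2 had 49.8 to 86.3 FPKM at 24 h, against values of 10.8 lowest, 19.5 median and 24.98 highest FPKM at 6 h (log2 1.83 ± 0.30, adjusted p = 0.000446). Hr3 stood at 74.7 ± 6.13 FPKM at 24 h and 38.2 ± 4.67 FPKM at 6 h (log2 0.98 ± 0.20, adjusted p = 0.003897). Pgm1 stood at 35.1 ± 5.72 FPKM at 24 h and 16.03 ± 2.802 FPKM at 6 h (log2 1.22 ± 0.15, adjusted p = 8.02e-06), and imd at 10.8 ± 2.34 FPKM at 24 h and 5.104 ± 0.4003 FPKM at 6 h (log2 0.95 ± 0.13, adjusted p = 5.58e-05). pxb was likewise higher at 24 h (log2 1.34 ± 0.18, adjusted p = 3.72e-05). Every 24 h library was above every 6 h library for E23, sli and Dscam2, and these calls, from E23 to pxb, were kept with any 1 library of either group left out.

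The largest falls were lower at 24 h than at 6 h. Nep5 had 0.401 to 1.001 FPKM at 24 h, against values of 5.77 lowest, 8.27 median and 15.9 highest FPKM at 6 h (log2 -2.82 ± 0.21, adjusted p = 4.64e-10). Drep4 had 2.52 to 4.08 FPKM at 24 h, against values of 11.4 lowest, 17.01 median and 19.2 highest FPKM at 6 h (log2 -2.05 ± 0.19, adjusted p = 2.46e-08). usp had 15.3 to 25.9 FPKM at 24 h, against values of 38.6 lowest, 55.9 median and 65.1 highest FPKM at 6 h (log2 -1.40 ± 0.25, adjusted p = 0.00111). For these 3 and for nolo (log2 -1.91 ± 0.27, adjusted p = 6.40e-05), Adcy8 (log2 -1.57 ± 0.26, adjusted p = 0.000582) and bigmax (log2 -0.59 ± 0.10, adjusted p = 0.000691), the call was also kept with any 1 library left out. Of the 15 largest rises 12, and of the 15 largest falls 14, differed from 6 h in the direction of their change from baseline. Both comparisons share the 24 h libraries, from which the genes were chosen. Among these rises the call was lost in 8 of 10 leave-outs for SIFR, 7 for mthl1, 4 for Hr4 and 2 for gukh. Among the falls it was lost in 7 for ftz-f1, 5 each for klu and fw, and 1 for Cbl.

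**Figure D4:**
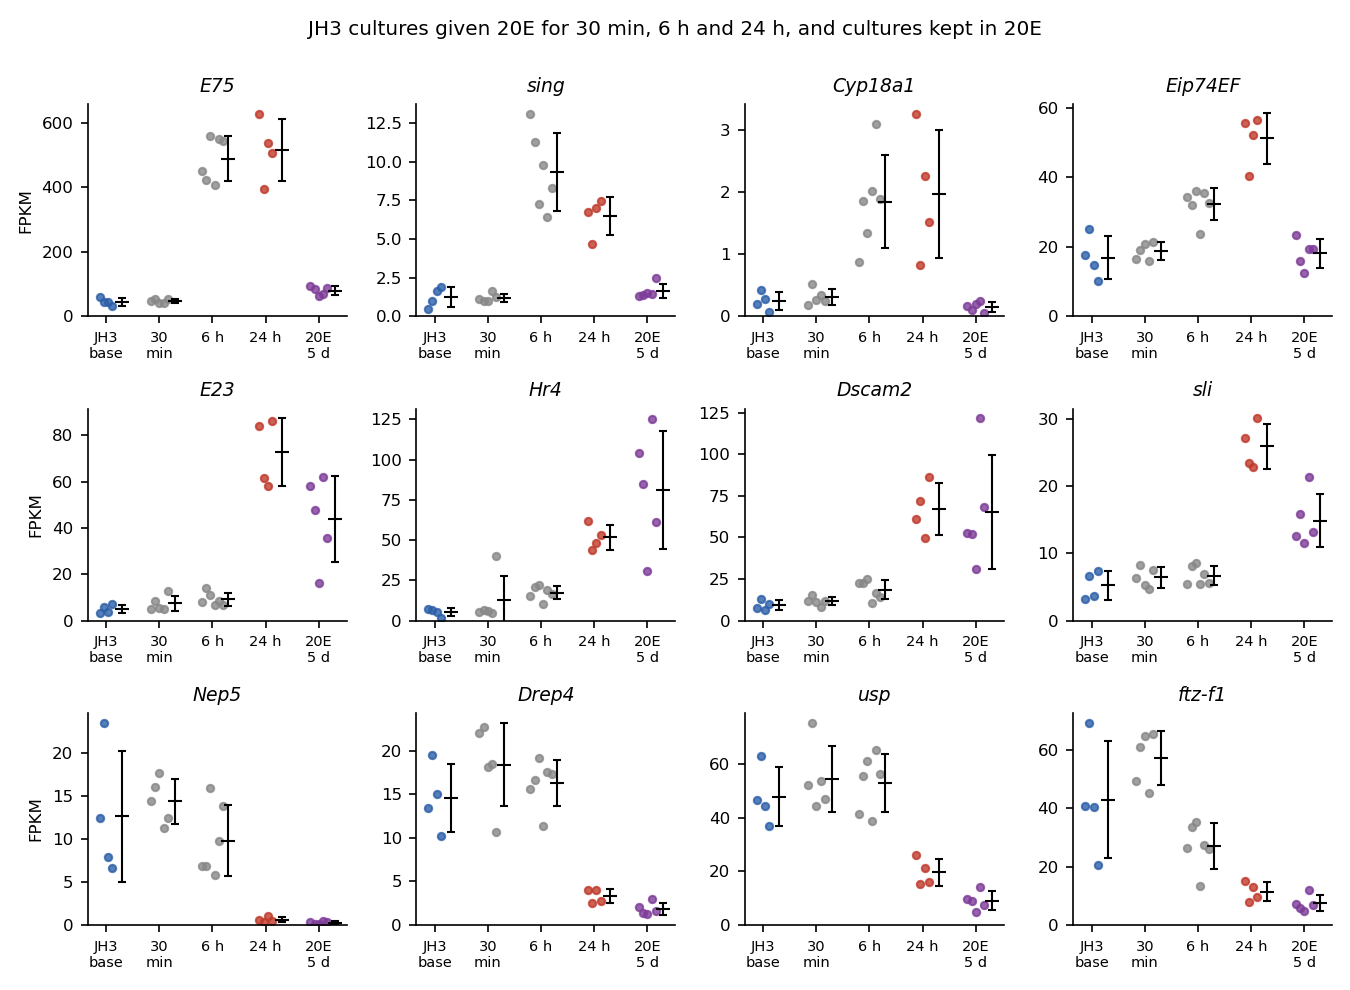
FPKM of 12 genes in each library of JH3 cultures at baseline (blue), after 30 min and 6 h of 20E (grey) and after 24 h of 20E (red), and in cultures kept for 5 days in 20E (purple); bars are the mean with SD. E75, sing and Cyp18a1 are high at 6 h and 24 h, and Nep5, Drep4 and usp drop between 6 h and 24 h. E23, Dscam2 and sli are high at 24 h and in 20E cultures, though sli was called higher at 24 h than in 20E cultures.

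Compared with cultures that had spent 5 days in 20E, the 24 h libraries still differed in 1665 genes (16.9% of genes tested), 944 higher (9.56%) and 721 lower (7.30%). Run B alone called 371, and leaving out 24 h replicate 1 or 3 gave 1098 or 1053. Of the 13 ecdysone list genes 5 were higher than in 20E cultures and none was lower: E75, Eip74EF, Hr39, Hr38 and usp. E75 averaged 517 ± 96.01 FPKM after 24 h and 79.1 ± 13.6 FPKM in the 20E baseline (SD, n = 4 and 5; log2 2.63 ± 0.23, adjusted p = 5.28e-09). Eip74EF averaged 51.2 ± 7.398 FPKM after 24 h and 18.1 ± 4.16 FPKM in the 20E baseline (log2 1.43 ± 0.21, adjusted p = 2.21e-05), Hr39 15.9 ± 1.08 FPKM and 6.72 ± 1.29 FPKM (log2 1.19 ± 0.17, adjusted p = 1.36e-05), and Cyp18a1, outside that list, 1.96 ± 1.04 FPKM and 0.147 ± 0.0759 FPKM (log2 1.27 ± 0.17, adjusted p = 7.08e-06). In these 4 genes the 20E baseline was nearer to the JH3 baseline than to the 24 h group. Hr38 averaged 45.1 ± 12.5 FPKM after 24 h and 11.9 ± 3.605 FPKM in the 20E baseline (log2 1.88 ± 0.55, adjusted p = 0.0187), a call lost without 24 h replicate 1 or without 24 h replicate 3 (adjusted p up to 0.0775).

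Among the large rises that were not called against the 20E baseline, Hr4 averaged 51.8 ± 7.79 FPKM after 24 h and 81.2 ± 36.8 FPKM in the 20E baseline (log2 -0.37 ± 0.44, adjusted p = 0.6105), Hr3 74.7 ± 6.13 FPKM and 71.8 ± 26.5 FPKM (log2 0.14 ± 0.21, adjusted p = 0.708), and Dscam2 67.2 ± 15.5 FPKM and 65.2 ± 34.2 FPKM (log2 0.13 ± 0.31, adjusted p = 0.812). The 20E baseline was widely spread for Hr4 and Dscam2, so a missing call does not show equal levels. Nep5 averaged 0.6098 ± 0.267 FPKM after 24 h and 0.275 ± 0.1605 FPKM in the 20E baseline (log2 0.16 ± 0.22, adjusted p = 0.669). Of the 15 largest rises, 7 were above the 20E baseline and 8 were not called. Among the 7 was sli, a call kept with any 1 library of either group left out (limma adjusted p up to 0.0404). The calls of Pgm1 and pxb, also among the 7, were lost in 6 and 5 of 9 leave-outs (limma adjusted p up to 0.123 and 0.151).

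Of the 15 largest falls, 10 were not called against the 20E baseline, 4 (nolo, Rpb8, usp and cv-c) were still above it and 1 (Ir76b) was below it. The cv-c call was lost in 7 of 9 leave-outs and the nolo call in 3 (limma adjusted p up to 0.152 and 0.0616). usp averaged 19.6 ± 4.99 FPKM after 24 h and 9.08 ± 3.49 FPKM in the 20E baseline (log2 1.06 ± 0.26, adjusted p = 0.00571), and Rpb8 averaged 20.3 ± 2.51 FPKM after 24 h and 8.63 ± 2.98 FPKM in the 20E baseline (log2 0.96 ± 0.21, adjusted p = 0.00205). Kr-h1 averaged 48.99 ± 8.33 FPKM after 24 h and 8.403 ± 4.19 FPKM in the 20E baseline (log2 2.49 ± 0.40, adjusted p = 8.86e-05), and every 24 h library was above every library of the 20E baseline. Ald1, an aldolase of glycolysis, averaged 79.3 ± 7.27 FPKM after 24 h and 19.7 ± 7.098 FPKM in the 20E baseline (log2 1.84 ± 0.13, adjusted p = 1.42e-10); at the JH3 baseline it had 90.2 ± 7.84 FPKM and the change was not called (adjusted p = 0.127).

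Among the strongest differences from the 20E baseline were also knockout (8.96 ± 0.969 FPKM after 24 h and 1.65 ± 0.629 FPKM in the 20E baseline; log2 1.81 ± 0.16, adjusted p = 5.28e-09), Sulf1, a sulfatase that edits heparan sulfate (36.5 ± 3.81 FPKM and 8.94 ± 0.727 FPKM; log2 1.89 ± 0.17, adjusted p = 6.56e-09), and rdx, an adaptor of a ubiquitin ligase (62.6 ± 9.73 FPKM and 23.1 ± 5.42 FPKM; log2 1.34 ± 0.13, adjusted p = 2.63e-08). Sulf1 and rdx had both risen from the JH3 baseline (log2 0.88 ± 0.18, adjusted p = 0.00272, and 0.65 ± 0.14, adjusted p = 0.00357). Lower than in the 20E baseline were dan, a factor of antenna and eye identity (3.43 ± 0.712 FPKM after 24 h and 12.3 ± 2.14 FPKM; log2 -1.61 ± 0.20, adjusted p = 1.70e-06), Agps, of ether lipid synthesis (4.83 ± 0.374 FPKM and 9.86 ± 2.07 FPKM; log2 -0.91 ± 0.11, adjusted p = 2.56e-06), Ets97D, the ETS factor that pairs with a GABP beta subunit (4.07 ± 0.446 FPKM and 7.12 ± 0.653 FPKM; log2 -0.69 ± 0.10, adjusted p = 1.26e-05), Sms, spermine synthase (6.68 ± 0.414 FPKM and 10.8 ± 0.938 FPKM; log2 -0.61 ± 0.10, adjusted p = 8.64e-05), and Hs3st-B, a heparan sulfate sulfotransferase (8.12 ± 1.89 FPKM and 36.7 ± 13.2 FPKM; log2 -1.82 ± 0.29, adjusted p = 8.74e-05). Of 10 transmitter genes, none of them called against the JH3 baseline, 8 were higher than in the 20E baseline (median log2 0.70). So were 6 of 10 neuropeptide genes (median log2 0.69) and 3 of 6 general neuron markers, nSyb, Syt1 and Snap25 (median log2 0.35), where 9.56% of all genes tested were higher. No member of these 3 lists was lower.

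The opposite switch, 20E cultures given JH3 for 24 h, shares the change of medium and the further day in culture, but not the loss of JH3. In it 24 genes were called (0.243% of genes tested), 20 higher (0.203%) and 4 lower (0.0405%), with 3 libraries that all came from run C. The difference between the 2 switches was called for 298 genes (3.02%), 143 with the larger value in the switch to 20E (1.45%) and 155 with the larger value in the switch to JH3 (1.57%). It was called for 195 genes when the third library of the switch to JH3 was left out. Of the 15 largest rises 13, and of the 15 largest falls 13, differed between the switches in the direction of their change, which is itself 1 side of this difference and was used to choose them, so the counts are no independent support. None of the 30 was called in the switch to JH3, where their log2 fold changes were -0.49 to 0.90. Among these 30 the called difference was lost in 10 of 16 leave-outs for Nrt and in 5 for Timp. SIFR and fw each lost it in 1.

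E75 had a log2 fold change of 3.44 ± 0.25 in the switch to 20E and 0.08 ± 0.27 in the switch to JH3, a difference of 3.36 ± 0.35 (adjusted p = 7.61e-07). Nep5 had -3.16 ± 0.23 in the switch to 20E and -0.04 ± 0.25 in the switch to JH3, a difference of -3.12 ± 0.32 (adjusted p = 7.61e-07). Pgm1 had 1.82 ± 0.17 in the switch to 20E and -0.42 ± 0.18 in the switch to JH3, a difference of 2.24 ± 0.24 (adjusted p = 7.61e-07). E23 (difference 3.70 ± 0.53, adjusted p = 6.59e-05), sli (2.16 ± 0.31, adjusted p = 6.59e-05), imd (1.74 ± 0.21, adjusted p = 3.82e-06), Drep4 (-2.02 ± 0.29, adjusted p = 7.30e-05) and Ets97D (-0.99 ± 0.14, adjusted p = 7.61e-05) gave the same pattern of a change with 20E and none called with JH3. Cbl fell by 1.39 on the log2 scale in the switch to 20E and had 0.90 ± 0.27 in the switch to JH3 (adjusted p = 0.172; difference -2.28 ± 0.34, adjusted p = 0.000107), and Oatp26F fell by 1.08 and had 1.08 ± 0.25 (adjusted p = 0.0542; difference -2.17 ± 0.32, adjusted p = 8.78e-05).

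Kr-h1 was called in the switch to JH3 (log2 2.62 ± 0.46, adjusted p = 0.00397), where it averaged 61.3 ± 34.8 FPKM after 24 h of JH3 and 8.403 ± 4.19 FPKM in the 20E baseline (SD, n = 3 and 5). The difference between the switches was not called for it (log2 -1.75 ± 0.60, adjusted p = 0.1303). A few genes were called in both switches: 4 rose in both (1.27% of the 314 rises with 20E and 20.0% of the 20 rises with JH3), 1 rose with 20E and fell with JH3, 2 fell with 20E and rose with JH3, and none fell in both. Sidpn, a transcription factor of the Hairy family, and gny, a glycosyltransferase, were the 2 with symbols among the 4. Sidpn had log2 0.59 ± 0.17 with 20E (adjusted p = 0.03397) and 1.04 ± 0.18 with JH3 (adjusted p = 0.00395), and gny 0.34 ± 0.10 with 20E (adjusted p = 0.0445) and 0.52 ± 0.11 with JH3 (adjusted p = 0.0254). The Sidpn call with 20E was lost without JH3 baseline replicate 1 (adjusted p = 0.161), 3 (0.0959) or 4 (0.0585) or 24 h replicate 1 (0.107), 3 (0.0775) or 4 (0.106), and the gny call without any 1 of the 8 libraries except 24 h replicate 2 (adjusted p 0.0575 to 0.127).

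**Figure D5:**
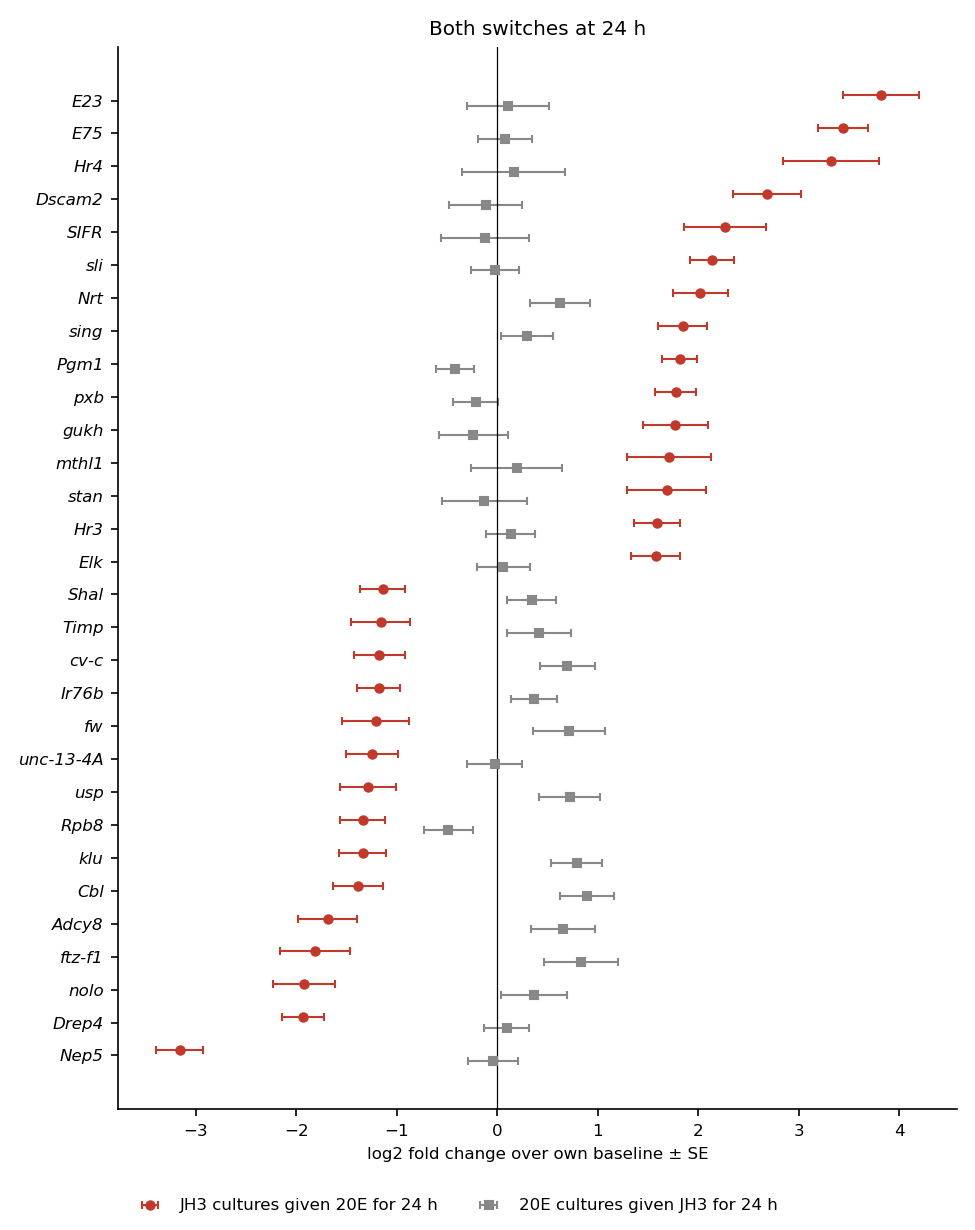
Log2 fold change with SE of the 15 largest rises and 15 largest falls in JH3 cultures given 20E for 24 h over the JH3 baseline (red, upper point) and in 20E cultures given JH3 for 24 h over the 20E baseline (grey, lower point). Grey points lie between -0.49 and 0.90, and none was called.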

How the data were processed

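PolyA RNA of primary neuronal cultures was made into strand-specific libraries, per the labels' protocols. The authors deposited 1 table of FPKM values for 14001 genes. The submitters' processing notes name bcl2fastq, STAR, featureCounts and DESeq2; their versions, their settings and the genome build were not given in the sources used here. Coordinates are left out. Of 14001 gene IDs, 13989 matched RefSeq's annotation (assembly Hsal_v8.6) and 4117 of them had a symbol. Whole reads could be recovered from the deposited FPKM for 13163 genes, with a largest distance of 4.88e-05 from a whole read; libraries held 5938007 to 22650435 reads, which limits the precision of low genes.

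Values were analysed as log2(FPKM + 1), which understates the change of low genes, for the 9873 genes at 1 FPKM or more in 3 or more of 35 libraries. limma 3.58.1 in R 4.3.3 was fitted to all 8 groups with the sequencing run as a term (trend and robust options), and p-values were adjusted over all 9873 genes (Benjamini-Hochberg, threshold 0.05). The method was tested on simulated data with noise drawn independently for each gene and library. Those data held no deviation shared across a library, so the test does not cover such deviations here. Run B was also fitted alone. Groups came from the labels, and replicates were numbered as there. Genes named were every tested member of the ecdysone and juvenile hormone lists, up to 4 called of each other list, the 15 largest rises and 15 largest falls with a symbol and a mean of at least 2 FPKM, and up to 5 each way of the further comparisons; others are marked as chosen after their values were seen. The comparison, the gene lists and the rule were chosen with earlier results of these data known. Alternatives were other pseudocounts, filters, scalings, run terms, library weights, a replicate block, recovered reads, a length covariate and each library left out.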

Additional observations from a re-analysis of the deposited data

Results flagged for a closer look

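Single libraries stood off from their group for 5 of the 172 groups of 4 values looked at, and chance flags about 1 in 20. Rpb8 had 50.2 FPKM in JH3 baseline replicate 1, where the other 3 baseline libraries had 40.3 to 41.8. unc-13-4A had 22.1 FPKM in 24 h replicate 2, where the other 24 h libraries had 34.6 to 34.8. Oatp26F had 32.8 FPKM in the same library, where the others had 58.7 to 63.3. Cth had 2.98 FPKM in 24 h replicate 1, where the others had 2.61 to 2.64. nAChRa3 had 12.6 FPKM in JH3 baseline replicate 3, where the others had 15.5 to 15.7.

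Times differed: 277 genes differed between 24 h and 6 h of 20E by limma's test of that difference. The log2 difference (24 h minus 6 h) was 3.04 for E23, 1.83 for sli, 1.34 for pxb, 1.22 for Pgm1 and 0.95 for imd. It was -2.82 for Nep5, -2.05 for Drep4, -1.91 for nolo, -1.57 for Adcy8 and -0.59 for bigmax.

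The switches in opposite directions differed for 298 genes. The log2 difference (switch to 20E minus switch to JH3) was 3.70 for E23, 3.36 for E75, 2.24 for Pgm1, 2.16 for sli and 1.74 for imd. It was -3.12 for Nep5, -2.28 for Cbl, -2.17 for Oatp26F, -2.02 for Drep4 and -0.99 for Ets97D. The adjusted p of these 20 gene values lay between 4.64e-10 (limma, Nep5 against 6 h) and 0.000691 (bigmax against 6 h).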

How the results depend on the processing

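The 515 genes called after 24 h of 20E became 89 within run B (67.4% of them higher, against 61.0%), 122 with the 8 libraries and a run term (72.1% higher; added after seeing the data), 2016 with library weights (53.3% higher), and 337 to 542 with 1 library left out. With a length covariate 738 were called, 388 higher and 350 lower (52.6% higher). Against 6 h, the 277 became 1 within run B, 1435 with weights, 582 with a length covariate (added after seeing the data) and 163 to 257 with 1 library left out. Against the 20E baseline, the 1665 became 371 within run B, 2639 with weights, 2848 with a length covariate (added after seeing the data) and 1053 to 1746 with 1 library left out. Between the switches, the 298 became 186 with the compared groups only, 751 with weights, 635 with a length covariate (added after seeing the data) and 195 to 399 with 1 library left out. The cause was not tested. With the replicate number as a block the calls were 446 against the JH3 baseline, 182 against 6 h, 1421 against the 20E baseline and 231 between the switches. Deviations of same-numbered 24 h and JH3 baseline libraries correlated at -0.06, -0.11, 0.33 and 0.21, and not every library correlated best with its own number, so the numbers were not taken as pairs. Of 78 named genes called, 26 kept their call in all alternatives and 58 in all but run B alone; no called value changed sign.

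Run A held no 24 h library and run C no JH3 baseline library, and the switch to JH3 came from run C alone, so run and group cannot be fully told apart there. FPKM carries a pseudocount of 1, so changes of genes under about 1 FPKM are compressed.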

Other observations

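Further genes known by number only, chosen after their values were seen, were among the largest changes. LOC105185334 had 6.81, 3.98, 10.4 and 6.74 FPKM in the 24 h libraries, against 0.232, 0.4903, 0.659 and 0.783 FPKM at the JH3 baseline (log2 2.35 ± 0.21, limma adjusted p = 1.87e-08). LOC105189503 had 41.3, 28.6, 32.9 and 46.6 FPKM after 24 h, against 4.38, 7.79, 4.96 and 6.33 FPKM at baseline (log2 2.52 ± 0.29, adjusted p = 9.48e-07). LOC105181592 had 13.6, 16.7, 12.7 and 18.7 FPKM after 24 h, against 1.98, 2.697, 1.44 and 3.11 FPKM at baseline (log2 2.35 ± 0.22, adjusted p = 2.49e-08). All 3 were higher in every 24 h library than in any baseline library. LOC105184250 had 2.47, 1.64, 2.11 and 2.15 FPKM after 24 h, against 18.02, 18.9, 11.1 and 6.15 FPKM at baseline (log2 -2.10 ± 0.33, adjusted p = 7.54e-05), and LOC105182024 had 2.44, 1.54, 1.99 and 2.03 FPKM after 24 h, against 10.8, 11.5, 8.16 and 5.26 FPKM at baseline (log2 -1.88 ± 0.15, adjusted p = 7.58e-10). Both were lower in every 24 h library.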
